A study of Homo sapiens with 12 samples.

Results

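Transcripts of the NRF2 pathway and of glutathione synthesis were examined in U87 and U118, 2 established human glioblastoma cell lines, before and after the formation of cell aggregates under temozolomide (TMZ), an alkylating drug. The 9 genes were taken by name, and all 9 were found among the 58174 gene identifiers in each table of the authors. They are NFE2L2, KEAP1, GCLC, GCLM, GSS, GSR, GPX4, NQO1 and HMOX1. Control cells, which the sample labels call sensitive, were compared with aggregation cells, which the labels call resistant, with 3 libraries per group and 12 altogether. By the methods of the study, both kinds of cells came from a CD133-CD15- fraction grown with serum and BMP2, and the aggregation cells had been kept in TMZ at 50 μM. In the study's account, the aggregates came from a rare subset of surviving cells that resumed division weeks after treatment began. Values are TPM (a share of all transcripts), which are scaled for transcript length and add up to the same total in each library.

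NFE2L2 encodes NRF2, the transcription factor that switches on antioxidant and detoxification genes, and KEAP1 encodes the adaptor that hands NRF2 over for degradation in unstressed cells. NRF2 is controlled mostly at the protein level, so the transcript level of NFE2L2 is not a measure of its activity. NRF2 binds with small MAF proteins to antioxidant response elements (ARE), short DNA motifs near its target genes, while BACH1 occupies the same elements and represses them. GCLC and GCLM encode the catalytic and the modifier subunit of glutamate-cysteine ligase, the rate-limiting enzyme of glutathione synthesis, and GSS encodes the synthetase of the next step. GSR returns oxidized glutathione to its reduced form, GPX4 uses glutathione to detoxify lipid hydroperoxides, NQO1 reduces quinones and HMOX1 breaks down heme.

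The libraries differed in ways that touch every value below. The control and aggregation libraries of U118 were less alike (Spearman 0.808 to 0.839 over 16382 genes) than the U118 aggregation libraries and the U87 libraries were (0.895 to 0.913), whereas libraries of 1 group reached 0.960 to 0.988. Whether the U118 control and aggregation libraries hold the same cell line was not tested, and this bears on every U118 fold change and on every difference between the lines. U87 control replicate 2 stood apart from the other U87 control libraries in its relation to GC content (Spearman -0.61 against 0.60 and 0.23), and so did U118 control replicate 3 within its own group (-0.42 against 0.10 and 0.49), which also had the highest mitochondrial share of its group. U118 aggregation replicate 1 had 15193 genes at 1 TPM or more against 13270 and 13545 in the other libraries of its group. It also differed from them in its relation to GC content (-0.33 against 0.33 and 0.19) and in its mitochondrial share (13.2% against 29.9% and 26.1%). The share of TPM from the mitochondrial genome lay between 12.9% and 16.9% for U87 control, 22.2% and 23.7% for U87 aggregation, 7.42% and 19.8% for U118 control, and 13.2% and 29.9% for U118 aggregation libraries. Of the 10 glial markers, 5 were at 1 TPM or more in every U87 library (VIM, NES, SLC1A3, OLIG2 and ALDH1L1) and 3 in every U118 library (VIM, NES and SLC1A3), while AQP4 was listed at 0 in all 12 libraries and SOX2 in all 6 U87 libraries. Fibroblast markers summed to 52.6 to 58.8 TPM in U87 control and 142 to 164 in U87 aggregation libraries, but to 845 to 1066 in U118 control and 177 to 360 in U118 aggregation libraries. The part of these differences in the results below was not tested.

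For each line separately, limma was run on log2(TPM + 1), and every log2 fold change below is aggregation against control on that scale. A gene was called when its adjusted p was under 0.05 over all genes tested and its log2 fold change was at least 1 in size. HMOX1 rose in U87, from a mean of 101 ± 4.67 to 235 ± 8.87 TPM (SD, n = 3), and was the only one of the 9 genes called in either line. In bulk libraries, a change in the share of cells of a kind and a change in RNA per cell cannot be told apart. In U87 that is 1 of 9 called higher and 0 of 9 called lower, beside 3.03% and 7.79% of the 13845 genes tested. In U118 limma called 0 of 9 in either direction, beside 8.64% higher and 26.6% lower of the 15527 genes tested, and at an unadjusted p under 0.05 there were 3 of 9 higher and 2 lower, beside 13.7% and 44.4% of genes. In U87 the unadjusted counts were 3 higher and 1 lower, beside 11.8% and 36.7%. Without the fold change limit, NFE2L2, GPX4 and HMOX1 were higher and GSS was lower in U87, 3 and 1 of 9 beside 9.43% and 29.7% of genes. In U118, GCLC, GSR and NQO1 were higher and no gene was lower, 3 and 0 of 9 beside 12.2% and 39.1% of genes. The control and aggregation libraries did not overlap for 6 of the 9 genes in U87 (53.4% of genes) and for 6 in U118 (58.6%).

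**Figure D1:**
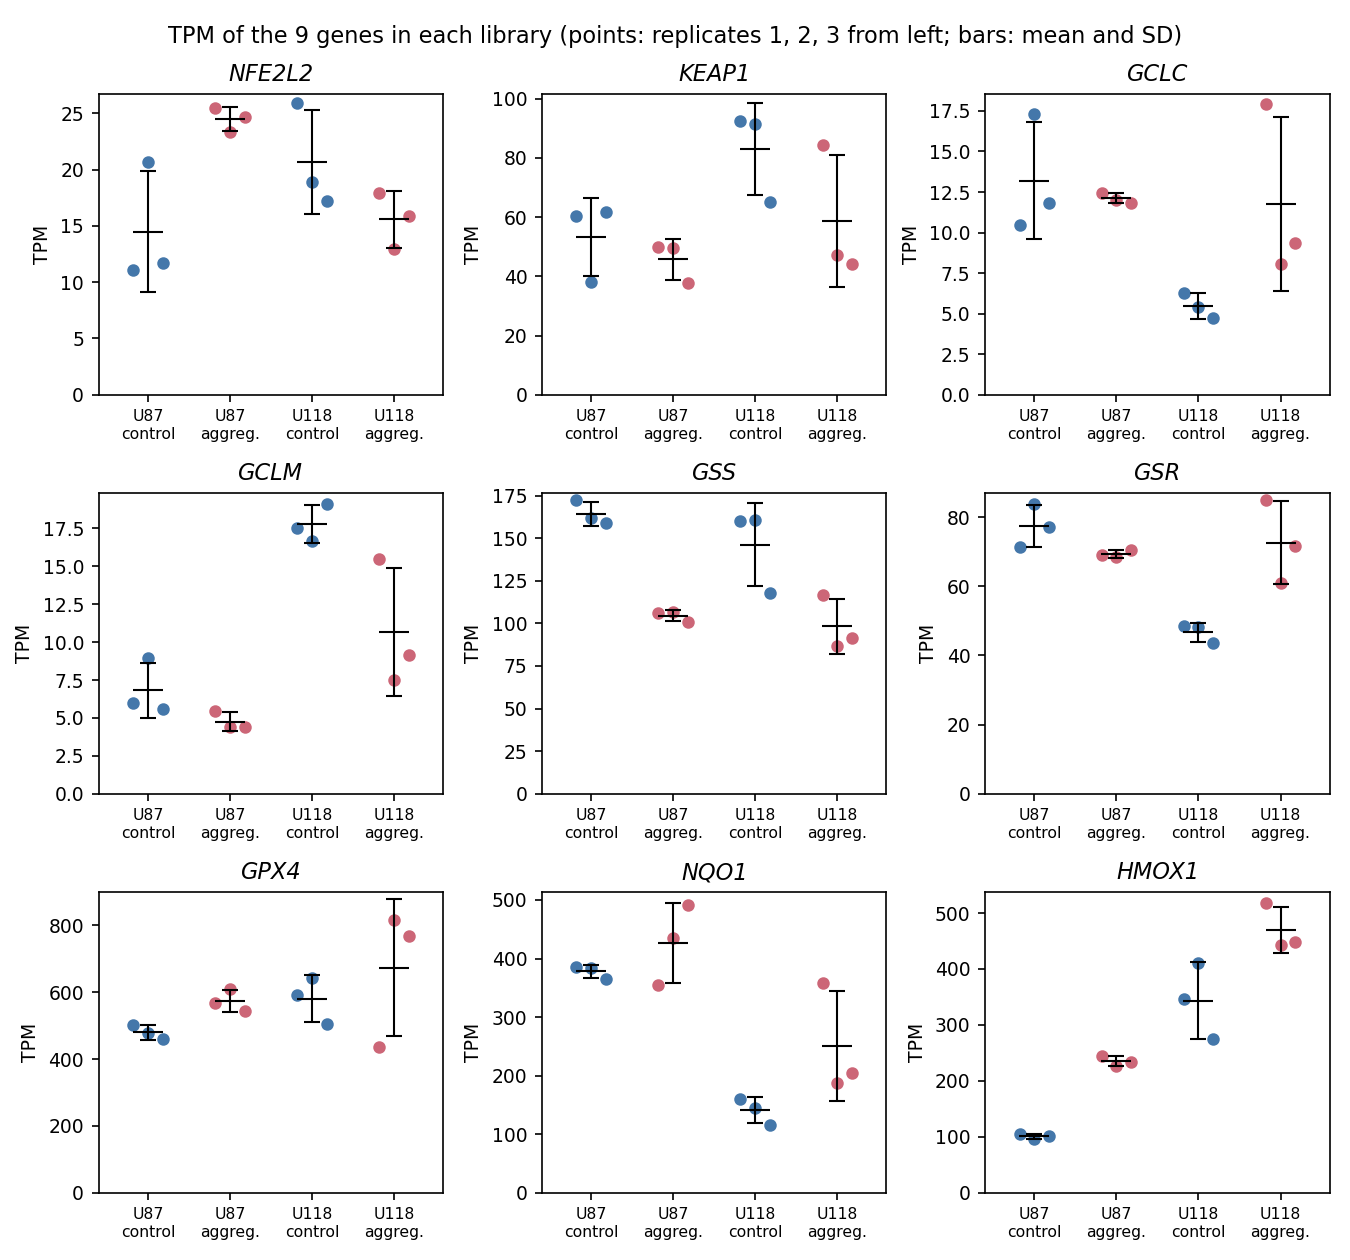
TPM of each of the 9 genes (vertical axes, linear from 0) in the control and aggregation libraries of U87 and U118, with 3 points per group and bars for the mean and SD. HMOX1 was at 95.8 to 105 TPM in U87 control and at 226 to 244 TPM in U87 aggregation libraries, and U118 aggregation replicate 1 is the high point for GCLC, NQO1 and GSR.

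The shares of higher and lower genes depended on the scale. All genes tested had a median log2 fold change of -0.24 in U87 and -0.52 in U118, and after the libraries were rescaled by median ratios it was 0.00 and -0.02. The median over the 9 genes was -0.09 in U87 and 0.17 in U118 as deposited, which lies 0.16 and 0.69 above the median of all genes. On the rescaled values 2 genes were called in U87, NFE2L2 and HMOX1, and 4 in U118, GCLC, GSR, NQO1 and HMOX1, all of them higher, beside 5.02% of all genes called higher and 3.78% lower in U87 and 15.3% and 12.9% in U118. With rescaling the share of higher calls over all genes also went up, from 419 against 1078 lower to 696 against 524 in U87, and from 1341 against 4134 to 2353 against 1983 in U118.

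**Figure D2:**
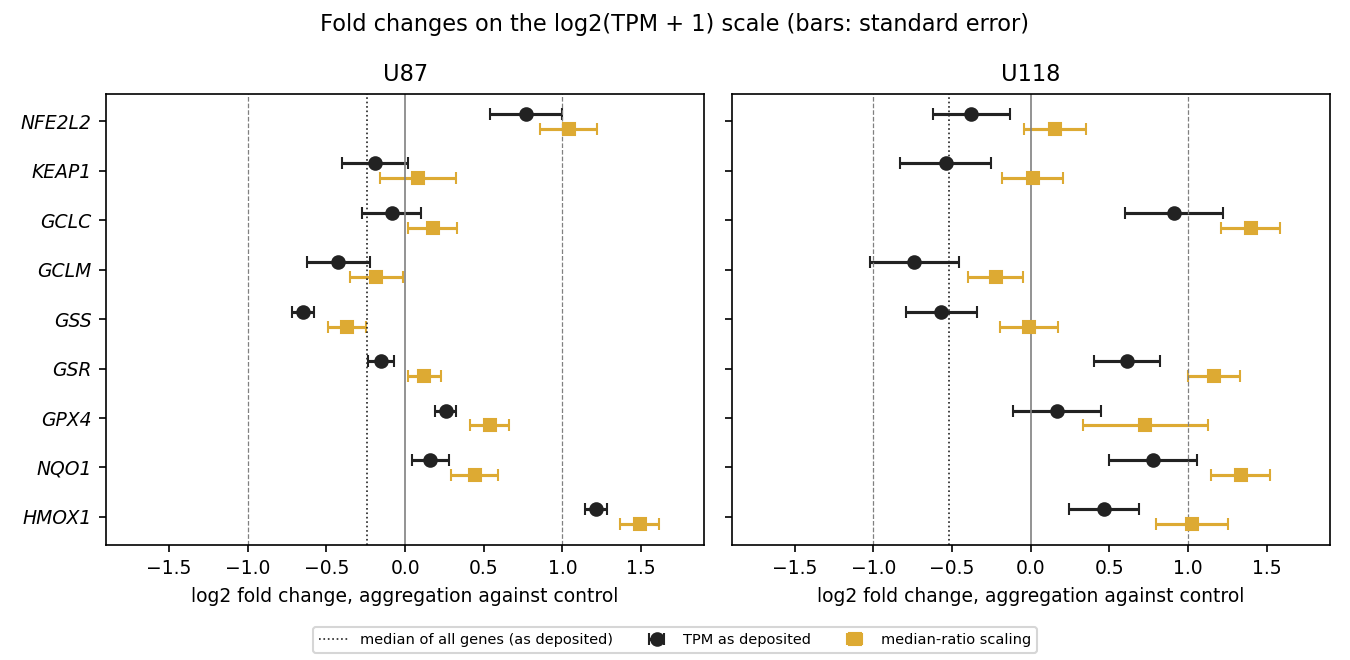
Log2 fold change of aggregation against control for the 9 genes in U87 (left) and U118 (right), on log2(TPM + 1), with bars for the standard error, black for TPM as deposited and yellow for median-ratio scaling. The dotted line is the median of all genes tested, -0.24 in U87 and -0.52 in U118, and the dashed lines mark a log2 fold change of 1 in either direction.

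Of the upstream regulators, NFE2L2 had fold changes of opposite sign in the 2 lines as deposited. In U87 control libraries NFE2L2 was at 11.1, 20.7 and 11.7 TPM, and in U87 aggregation libraries at 25.5, 23.4 and 24.7 TPM. All aggregation libraries lay above all control libraries, and control replicate 2, the library that stood apart, was the control nearest to them. The log2 fold change was 0.77 (SE 0.23, limma adjusted p = 0.0351), below the limit for a call, and without control replicate 2 it was 1.04 (adjusted p = 0.000905) and was called. With any library left out the adjusted p ranged from 0.000905 to 0.111. In U118, NFE2L2 was at 25.9, 18.9 and 17.2 TPM in control and 17.9, 12.9 and 15.9 TPM in aggregation libraries. These groups overlapped, with a log2 fold change of -0.38 (SE 0.25, adjusted p = 0.222) that became 0.15 after median-ratio scaling. The U118 change minus the U87 change was -1.15 (SE 0.34, adjusted p = 0.0171), the only difference between the lines that was called among the 9 genes, beside 30.5% of the 16382 genes tested in both lines together. It was not called after median-ratio scaling (-0.94), without U87 control replicate 1 (-0.99) or without U118 control replicate 1 (-0.98, adjusted p = 0.0506).

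KEAP1 showed no change past the test in either line. It was at 60.3, 38.0 and 61.6 TPM in U87 control and 50.0, 49.5 and 37.8 TPM in U87 aggregation libraries, and the lowest control, again replicate 2, was level with the lowest aggregation library (log2 fold change -0.19, SE 0.21, adjusted p = 0.504). In U118 it was at 92.5, 91.6 and 65.1 TPM in control and 84.3, 47.4 and 44.1 TPM in aggregation libraries, overlapping through aggregation replicate 1 (log2 fold change -0.54, SE 0.29, adjusted p = 0.143). Without that library the log2 fold change was -0.83 (adjusted p = 0.00692), and without control replicate 3 it was -0.70 (adjusted p = 0.109). With the trends of GC content and transcript length removed it was -0.85 (adjusted p = 0.0498). After rescaling KEAP1 stood at 0.08 in U87 and 0.01 in U118.

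Ratios of 2 genes within a library are free of the scaling, and 6 pairs were compared in both lines, all chosen after the values had been seen. Trends with GC content and transcript length can still act on a ratio and were not removed here. With 3 libraries against 3 an exact two-sided permutation test cannot go below p = 0.1. Of the 12 comparisons 9 reached that value, with a Benjamini-Hochberg adjusted p of 0.133, so none could pass 0.05. The NFE2L2/KEAP1 ratio was 0.183, 0.546 and 0.191 in U87 control and 0.509, 0.472 and 0.653 in U87 aggregation libraries, and the overlap was due to control replicate 2. In U118 the NFE2L2/KEAP1 ratios also overlapped, with means of 0.250 ± 0.0389 in control and 0.282 ± 0.0743 in aggregation libraries (SD, n = 3). The ratio of NFE2L2 to BACH1, its competitor, was 3.08 ± 0.497 in U87 control and 5.82 ± 0.315 in U87 aggregation cells (SD, n = 3). In U118 that ratio was 1.77 ± 0.199 in control and 4.24 ± 0.283 in aggregation cells, and the libraries did not overlap in either line. BACH1 itself fell in U118, from 13.2, 10.6 and 10.998 TPM to 4.55, 2.87 and 3.73 TPM (log2 fold change -1.43, SE 0.24, adjusted p = 0.00133), a call lost after median-ratio scaling (-0.95, adjusted p = 0.00219). In U87 BACH1 was at 3.08, 7.98 and 3.83 TPM in control and 4.21, 3.93 and 4.52 TPM in aggregation libraries (adjusted p = 0.805).

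Among the synthesis genes, the fold changes of GCLC and GCLM had opposite signs in U118. The sequences before their start sites are shown because both subunits are known NRF2 targets. They are from RefSeq on GRCh38.p14, written 5′ to 3′ on the gene's strand, and cover the part of the 250 bases before the RefSeq start that lies outside the exons of GENCODE release 29, for GCLM to the end of the match. A match to the ARE core TGACNNNGC, searched on both strands, is in capitals. GCLC at chr6:53545130-53545351 has none, and GCLM at chr1:93909456-93909680 has 1, read on the strand opposite to the gene, from 34 to 26 bases before the start and reaching 1 base into the exon.
GCLC: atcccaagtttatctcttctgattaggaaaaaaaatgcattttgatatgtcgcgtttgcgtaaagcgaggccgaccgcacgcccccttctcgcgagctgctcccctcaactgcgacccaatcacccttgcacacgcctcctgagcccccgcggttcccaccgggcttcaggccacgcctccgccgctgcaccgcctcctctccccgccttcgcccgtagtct
GCLM: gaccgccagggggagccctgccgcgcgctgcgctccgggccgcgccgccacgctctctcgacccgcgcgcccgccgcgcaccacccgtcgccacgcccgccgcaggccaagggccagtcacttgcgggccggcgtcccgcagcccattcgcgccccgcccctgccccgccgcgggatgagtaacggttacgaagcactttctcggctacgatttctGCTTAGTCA
KEAP1 had 2 matches before 1 of its start sites, TGACACGGC at chr19:10502817-10502825 and the one shown next at chr19:10502784-10502812, both within a GENCODE exon. This second match has the same letters as that of GCLM and is shown with 10 bases on either side.
KEAP1: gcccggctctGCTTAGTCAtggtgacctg
Windows of 300 bases, from 250 before to 50 after a start, were available for 6 of the 9 genes, 10 windows in all, and 2 windows held the ARE core. Of all 35116 such windows 13.3% held it. No window of these genes held TGANTCA, the core of the AP-1 motif, which can overlap the ARE core and was found in 7.71% of all windows. These are matches of letters only, and elements farther from the start were not searched.

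In U118 control libraries GCLC was at 6.29, 5.43 and 4.70 TPM and in aggregation libraries at 17.9, 8.05 and 9.38 TPM. The aggregation libraries were all higher, and replicate 1, which stood apart in the number of genes detected, was the highest. The log2 fold change was 0.91 (SE 0.31, adjusted p = 0.0356), 1.40 after median-ratio scaling (adjusted p = 0.000463) and 0.59 (adjusted p = 0.0223) without aggregation replicate 1. With any library left out the adjusted p ranged from 0.0206 to 0.114. In U87 GCLC was at 10.5, 17.3 and 11.8 TPM in control and 12.4, 12.04 and 11.8 TPM in aggregation libraries, and the groups overlapped (log2 fold change -0.09, SE 0.19, adjusted p = 0.748). The U118 change exceeded the U87 change by 1.00 (SE 0.38, adjusted p = 0.0567), which did not pass the test as deposited and passed after median-ratio scaling (1.15, adjusted p = 0.00167).

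GCLM, in contrast, was at 17.5, 16.6 and 19.1 TPM in U118 control and 15.5, 7.48 and 9.12 TPM in U118 aggregation libraries. All aggregation libraries were lower, but the log2 fold change of -0.74 (SE 0.28) had an adjusted p of 0.0534. Without aggregation replicate 1 it was -1.02 (adjusted p = 0.00131) and was called, and after median-ratio scaling it was -0.22 (adjusted p = 0.323). In U87 GCLM was at 5.97, 8.92 and 5.59 TPM in control and 5.46, 4.39 and 4.42 TPM in aggregation libraries, again without overlap (log2 fold change -0.42, SE 0.20, adjusted p = 0.136).

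The ratio of the catalytic to the modifier subunit was higher in the aggregation libraries of both lines without overlap. No test compared the lines on this ratio. In U118 the GCLC/GCLM ratio was 0.359, 0.326 and 0.246 in control and 1.16, 1.08 and 1.03 in aggregation libraries, 3.54-fold higher by geometric means. The catalytic transcript was thus below the modifier transcript in each U118 control library and above it in each aggregation library. In U87 it was above the modifier in all 6 libraries, at 1.76, 1.94 and 2.11 in control and 2.28, 2.74 and 2.68 in aggregation libraries, 1.32-fold higher. In this ratio U118 aggregation replicate 1 and U87 control replicate 2 lay close to the other libraries of their groups.

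GSS, the second enzyme of the pathway, had lower values in aggregation cells of both lines. It was at 172, 162 and 159 TPM in U87 control and 106, 107 and 101 TPM in U87 aggregation libraries, with a log2 fold change of -0.65 (SE 0.07, adjusted p = 0.000581) that is short of a call. In U118 it was at 160.1, 161 and 118.01 TPM in control and 117, 86.6 and 91.4 TPM in aggregation libraries (log2 fold change -0.57, SE 0.22, adjusted p = 0.0593). It was -0.70 (adjusted p = 0.0122) without aggregation replicate 1 and -0.71 (adjusted p = 0.0345) without control replicate 3. The U118 groups were separated only by the gap between control replicate 3 and aggregation replicate 1. Relative to the median of all genes the changes were -0.40 in U87 and -0.05 in U118, and after rescaling -0.37 (adjusted p = 0.048) and -0.01.

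GSR, which recycles glutathione, was at 48.4, 48.3 and 43.6 TPM in U118 control and 85.1, 61.1 and 71.5 TPM in U118 aggregation libraries. The groups did not overlap and the log2 fold change was 0.61 (SE 0.21, adjusted p = 0.0346), or 1.16 after median-ratio scaling (adjusted p = 0.000589). With any library left out the adjusted p ranged from 0.0228 to 0.127. In U87 it was at 71.4, 83.8 and 77.2 TPM in control and 69.0, 68.4 and 70.6 TPM in aggregation libraries, slightly lower without overlap (log2 fold change -0.16, SE 0.08, adjusted p = 0.184) but 0.12 after rescaling. The difference between the lines was 0.77 (SE 0.20, adjusted p = 0.00973). The GSR/GSS ratio was higher in aggregation libraries of both lines without overlap. It was 0.473 ± 0.0528 in U87 control and 0.664 ± 0.0312 in U87 aggregation cells, and 0.324 ± 0.0391 in U118 control and 0.739 ± 0.0399 in U118 aggregation cells (SD, n = 3), 1.41-fold and 2.29-fold higher.

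GPX4, the lipid hydroperoxide peroxidase, was the most abundant of the 9 transcripts in each group by its mean. It was at 502, 478 and 459 TPM in U87 control and 568, 609.6 and 544 TPM in U87 aggregation libraries, a small difference without overlap (log2 fold change 0.26, SE 0.07, adjusted p = 0.0233, from 0.0261 to 0.0808 with a library left out). In U118 it was at 593, 644 and 505 TPM in control but at 437, 815 and 768 TPM in aggregation libraries. Aggregation replicate 1 lay below all controls and the other 2 aggregation libraries above them, so that the log2 fold change of 0.17 (SE 0.28, adjusted p = 0.633) rested on that library, and it was 0.45 (adjusted p = 0.0665) without it. With the trends of GC content and transcript length removed the U118 value was -0.34.

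NQO1, a classical NRF2 target, was at 386, 384 and 366 TPM in U87 control and 354, 436 and 491 TPM in U87 aggregation libraries, where aggregation replicate 1 was the lowest of all 6 (log2 fold change 0.16, SE 0.12, adjusted p = 0.319). In U118 it was at 160.2, 146 and 116 TPM in control and 358, 188 and 205 TPM in aggregation libraries. All U118 aggregation libraries were higher (log2 fold change 0.78, SE 0.28, adjusted p = 0.0435), and after median-ratio scaling it was 1.34 (adjusted p = 0.000564). Without aggregation replicate 1 it was 0.49 as deposited (adjusted p = 0.0464), and over all libraries left out the adjusted p ranged from 0.0313 to 0.128, the highest without control replicate 3. The difference between the lines was 0.62 (SE 0.32, adjusted p = 0.15).

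HMOX1, the inducible heme oxygenase, was at 105, 95.8 and 101 TPM in U87 control and 244, 226 and 234 TPM in U87 aggregation libraries. The 2 groups were far apart relative to their spread (log2 fold change 1.21, SE 0.07, adjusted p = 7.81e-05), and the call held whichever library was left out (1.18 to 1.24). In U118, where control cells already had more HMOX1, it was at 346, 411 and 274 TPM in control and 517, 443 and 448 TPM in aggregation libraries. These did not overlap either, but the log2 fold change was 0.46 (SE 0.22, adjusted p = 0.111), and 1.02 after median-ratio scaling (adjusted p = 0.00644) but 0.041 (adjusted p = 0.878) with the trends of GC content and transcript length removed. The U118 change minus the U87 change was -0.75 (SE 0.21, adjusted p = 0.0154), -0.53 (adjusted p = 0.108) after median-ratio scaling and -1.17 (adjusted p = 0.000877) with the GC and length trends removed. With GSR and NFE2L2 it makes 3 of 9 genes with an adjusted p under 0.05 for the difference between the lines, beside 38.1% of genes. Relative to HMOX2, the constitutive isoenzyme, HMOX1 was higher in the aggregation libraries of both lines without overlap. The HMOX1/HMOX2 ratio was 1.61 ± 0.239 in U87 control and 5.69 ± 0.316 in U87 aggregation cells, 3.56-fold higher, and 4.43 ± 0.515 in U118 control and 14.6 ± 0.167 in U118 aggregation cells, 3.31-fold higher (SD, n = 3). HMOX2 fell in U118, from 86.2, 96.3 and 54.8 TPM to 35.2, 30.8 and 30.6 TPM (log2 fold change -1.24, SE 0.25, adjusted p = 0.00341), a call lost after median-ratio scaling (-0.69, adjusted p = 0.0417).

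Across the 4 groups, the order of the levels differed from gene to gene, and since the tables of the 2 lines are separate it is given as a description. HMOX1 was the only gene whose 4 groups were all apart, from U87 control over U87 aggregation and U118 control to U118 aggregation. For NQO1, U118 control was below U118 aggregation and that below U87 control, while U87 aggregation, the highest by its mean, overlapped both U87 control and U118 aggregation. GCLM went from U87 aggregation over U87 control and U118 aggregation to U118 control, and only U87 control and U118 aggregation overlapped among these neighbours. For GCLC and GSR, U118 control lay below the other 3 groups. Those overlapped for GCLC, and for GSR U118 aggregation overlapped both U87 groups, which were apart from each other. GSS was lower in both aggregation groups, which overlapped, than in both control groups, which also overlapped. For KEAP1 and NFE2L2 each neighbour in the order overlapped the next. GPX4 had its lowest mean in U87 control, apart from the next group, although U118 aggregation replicate 1 was lower still, and the other 3 groups overlapped. The mean of U118 aggregation cells was nearer to that of U87 control cells than the mean of U118 control cells was for 6 of the 9 genes, NFE2L2, KEAP1, GCLC, GCLM, GSR and NQO1, which is 66.7% beside 67% of the genes tested in U118.

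The genes whose pattern over the 4 group means was most like a given gene were sought among 13208 genes tested in both lines, by the root mean square difference of centred log2(TPM + 1). For NFE2L2 these were SNORD4B (0.0338), CHP1P2 (0.0546) and ST3GAL5 (0.0697). For NQO1 they were ANKRD24 (0.0322), PLEKHB2 (0.0395) and TMBIM1 (0.0756), and for HMOX1 RAPGEF3 (0.139), PGPEP1 (0.154) and ZNF691-DT (0.155). These values are descriptions over 4 means. ANKRD24 and the genes named for NFE2L2 were low, with group means between 0.783 and 4.57 TPM.

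Other genes of the pathway were taken from 7 lists written by function. Beside their counts stand, over all genes, 3.03% called higher and 7.79% lower in U87 and 8.64% and 26.6% in U118, or after rescaling 5.02% and 3.78%, and 15.3% and 12.9%. A gene at 1 TPM or more in all libraries of 1 group and in none of the other passed the filter only through that group, which fixed its direction. No gene of the 7 lists was of this kind in U87, and in U118 there were 5, ABCC3, GPX3, ME1, NNT and SEPSECS. Without such genes the shares over all genes were 2.16% higher and 7.14% lower for U87, and 5.69% and 23.5% for U118. Of 14 regulators of NRF2, 0 were called higher and 1 lower in U87, and in U118 there were 1 higher and 3 lower. After rescaling there were 1 higher and 0 lower in U87, and 2 higher and 1 lower for U118. PGAM5, a mitochondrial phosphatase that binds KEAP1, was the U87 gene called lower (log2 fold change -1.02), a call lost after rescaling (-0.74), without mitochondrially encoded genes and without control replicate 1. In U118 the small MAF gene MAFF rose from 2.96, 3.30 and 7.08 TPM to 18.3, 19.4 and 23.1 TPM (2.03), and CREBBP, a coactivator, fell from 42.5, 53.2 and 56.9 TPM to 11.2, 10.5 and 11.2 TPM (-2.10). The list's median lay 0.16 above that of all genes in U87 and -0.02 from it in U118. With GC and length trends removed the U118 value was 0.35, with 1 gene called higher and 1 lower. Without aggregation replicate 1 it was 0.21, with 1 higher and 5 lower, and without the filter -0.47.

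Of the 37 further NRF2 target genes, 33 could be tested in U87, with 2 called higher and 5 lower, and 34 in U118, with 6 higher and 4 lower. Without ABCC3 and ME1, whose direction the filter fixed, the U118 counts were 5 higher and 3 lower of 32. Median-ratio scaling turned these into 2 higher and 2 lower for U87 and 13 higher and 3 lower for U118, ABCC3 and ME1 included. Without U118 aggregation replicate 1 the U118 counts were 5 higher and 6 lower of 33, beside 767 and 5627 of all 14658 genes. With GC and length trends removed they were 4 and 4 of 34, beside 1212 and 3858 of all 15496 genes. The median of the list lay -0.13 from that of all genes in U87 and 0.69 above it in U118. SRXN1, which reactivates peroxiredoxins, fell in both lines, from 76.4, 87.1 and 86.7 TPM to 34.1, 33.6 and 35.8 TPM in U87 (log2 fold change -1.25, SE 0.09, adjusted p = 0.000136). In U118 SRXN1 went from 169, 165 and 121 TPM to 86.3, 49.9 and 55.4 TPM (-1.26, SE 0.26, adjusted p = 0.00395). After rescaling SRXN1 was not called, at -0.97 in U87 (adjusted p = 0.000392) and -0.70 in U118 (adjusted p = 0.0121). OSGIN1, a growth inhibitor induced by oxidative stress, was called in opposite directions, from 49.1, 41.4 and 42.2 TPM to 15.5, 16.4 and 12.9 TPM in U87 (-1.51) and from 20.4, 22.0 and 19.7 TPM to 56.5, 73.4 and 57.0 TPM in U118 (1.54). TRIM16L was the other large fall in U87 (-1.51). SESN2, a stress-induced sestrin chosen after its values were seen, rose in both lines, from 15.2, 13.7 and 15.8 TPM to 37.98, 34.2 and 36.2 TPM in U87 (1.22, SE 0.10, adjusted p = 0.000267). In U118 SESN2 went from 24.1, 22.01 and 16.1 TPM to 54.6, 42.6 and 45.998 TPM (1.17, SE 0.23, adjusted p = 0.00291). Both SESN2 calls held after rescaling (1.49 and 1.72) and whichever library was left out. In U118 the drug efflux pump gene ABCC1 fell from 101, 111 and 91.6 TPM to 22.1, 21.3 and 21.9 TPM (-2.16), while ABCC3 was at 0.0222, 0.174 and 0.0903 TPM in control and 13.7, 5.75 and 5.60 TPM in aggregation libraries. With any 1 of the aggregation libraries left out ABCC3 was not tested. TXNRD1, thioredoxin reductase, was not called in either line, at 62.2, 164 and 152 TPM in U87 control and 93.2, 89.2 and 68.7 TPM in U87 aggregation libraries. In U118 TXNRD1 was at 141, 154 and 121 TPM in control and at 379.9, 123 and 148 TPM in aggregation libraries, where replicate 1 was again the high one.

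Of the genes that supply cysteine for glutathione, 11 could be tested in U87, with 1 called higher and 2 lower, and 13 in U118, with 2 higher and 1 lower. After rescaling these were 2 and 1 in U87, and 6 and 1 in U118. Without U118 aggregation replicate 1 the U118 counts were 2 higher and 4 lower of 13, beside 767 and 5627 of all 14658 genes. SLC7A11, the cystine importer subunit, was at 0.175 to 0.557 TPM in U87, too low to be tested. In U118 SLC7A11 was at 5.18, 4.61 and 5.89 TPM in control and 3.58, 1.71 and 2.07 TPM in aggregation libraries (log2 fold change -0.88, SE 0.26, adjusted p = 0.0191), short of a call. CTH, which makes cysteine from cystathionine, rose in both lines, from 1.63, 0.984 and 1.79 TPM to 4.25, 4.61 and 4.69 TPM in U87 (1.17) and from 3.68, 3.51 and 4.10 TPM to 15.2, 10.1 and 11.2 TPM in U118 (1.45). CHAC2, which degrades glutathione, fell in both lines (-1.14 in U87 and -1.53 in U118). In U87 this call was lost after rescaling (-0.91) and without control replicate 2 or any 1 aggregation library, and in U118 without control replicate 3. The amino acid transporter gene SLC1A4 fell in U87 (-1.39), and GGT1, which starts the breakdown of extracellular glutathione, rose in U118 from 10.9, 11.2 and 8.57 TPM to 31.3, 35.2 and 35.4 TPM (1.65). The list's median lay 0.16 above that of all genes in U87 and 1.06 above it in U118. This U118 value was 0.07 without the filter on low values (16 genes) and -0.07 at a minimum mean of 10 TPM (8 genes).

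Among glutathione peroxidases, transferases and glutaredoxins, 19 could be tested in U87, with 1 called higher and 1 lower, and 20 in U118, with 6 higher and 3 lower. After rescaling these were 1 and 0 in U87, and 10 and 1 in U118, GPX3 included. GPX1, the abundant cytosolic peroxidase, fell in U87 from 711, 692 and 707 TPM to 328, 459.8 and 282 TPM (log2 fold change -1.01), in the same libraries in which GPX4 was slightly higher. That call was lost after rescaling (-0.73), without mitochondrially encoded genes and without control replicate 1, aggregation replicate 1 or aggregation replicate 3. GLRX, a glutaredoxin, rose in both lines (1.00 in U87 and 1.69 in U118), in U87 not without control replicate 3 or aggregation replicate 3. In U118 GPX3 was at 0.0882, 0.275 and 0 TPM in control and 3.52, 2.80 and 4.73 TPM in aggregation libraries. With any 1 of the aggregation libraries left out it was not tested, and without it the U118 counts were 5 higher and 3 lower of 19. GSTK1, a transferase, rose in U118 from 55.1, 66.4 and 53.2 TPM to 203, 146 and 165 TPM (1.53). Relative to all genes the median was 0.17 higher in U87 and 1.03 higher in U118.

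NADPH feeds GSR and NQO1, and of 13 tested genes for its supply 0 were called higher and 3 lower in U87, and in U118 there were 1 higher and 3 lower. Of those 3, NNT and ME1 had their direction fixed by the filter, and without them 1 was higher and 1 lower of 11 in U118, beside 23.5% of all genes lower. After rescaling these were 0 and 2 in U87, and 3 and 2 in U118, where the 2 lower ones were NNT and ME1. The U87 calls were ALDH1L1 (-2.14), IDH2 (-1.48) and TKT (-1.04). TKT was not called after rescaling (-0.76), without mitochondrially encoded genes (-0.90) or without control replicate 2. In U118 NNT, the mitochondrial transhydrogenase, went from 42.1, 45.6 and 38.5 TPM to 0.21, 0 and 0.0216 TPM, and ME1, malic enzyme, from 9.29, 8.51 and 9.13 TPM to a listed value of 0 in all 3 aggregation libraries. With any 1 of the control libraries left out neither was tested. In the U87 libraries ME1 was at 0 to 0.196 TPM and NNT at 8.04 to 12.7 TPM. MTHFD2 was called higher in U118 (1.23), with replicate 1 highest at 74.4 TPM against 23.8 and 28.6 TPM, and was not called without that library or any 1 control library. The median of the list stood -0.11 from that of all genes in U87 and 0.13 above it in U118. In U118 it stood at -0.21 without aggregation replicate 1, -0.17 without the filter and 0.61 without control replicate 2. Without aggregation replicate 1 the U118 counts were 0 higher and 5 lower of 13, beside 767 and 5627 of all 14658 genes.

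Heme and iron genes, which handle the substrate and the products of HMOX1, had 1 of 13 called higher and 0 lower in U87, and 2 of 13 higher and 3 lower in U118. After rescaling these were 1 and 0 in U87, and 4 and 0 in U118. FTH1, the ferritin heavy chain that stores iron, rose in both lines, from 8511, 8044 and 7836 TPM to 19057, 14838 and 15575 TPM in U87 (log2 fold change 1.01, SE 0.10, adjusted p = 0.000489). In U118 FTH1 went from 5205, 4718 and 3379 TPM to 9329.6, 8889 and 10133 TPM (1.11, SE 0.28, adjusted p = 0.0105). The FTH1 call was lost without control replicate 3 or aggregation replicate 1 in U87, and without control replicate 3 or aggregation replicate 3 in U118, with fold changes from 0.90 and 0.93 upward. Its ratio to FTL, the light chain, was 0.232 ± 0.00373 in U87 control and 0.352 ± 0.0596 in U87 aggregation cells without overlap (SD, n = 3), and overlapped in U118. BLVRB, a biliverdin reductase, rose in U118 (1.66), and TFRC, which imports iron, fell (-1.50), a call lost after rescaling (-0.94). The median lay -0.06 from that of all genes in U87 and 0.65 above it in U118.

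Of the genes of ferroptosis and of selenoprotein synthesis, which GPX4 requires, none was called higher by limma and 4 were called lower in each line, of 12 tested in U87 and 13 in U118, where 26.6% of all genes were called lower. Without SEPSECS, whose direction the filter fixed, it was 3 of 12 in U118, beside 23.5%. In U87 EEFSEC, the elongation factor that inserts selenocysteine, fell from 18.7, 21.5 and 23.0 TPM to 3.93, 3.89 and 5.07 TPM (log2 fold change -2.06, SE 0.15, adjusted p = 0.000166). AIFM2, which suppresses ferroptosis without GPX4, fell from 38.5, 38.3 and 38.2 TPM to 18.1, 16.1 and 16.4 TPM in U87 (-1.14), as did DHODH (-1.24). After rescaling AIFM2 (-0.87) and DHODH (-0.97) were not called. In U118 the selenium genes SEPHS2 (-1.42) and PSTK (-1.10) were called lower, and neither was after rescaling (-0.87 and -0.63). PSTK was called in only 1 of the 6 fits with a library left out. The median of the list lay -0.26 and -0.13 from that of all genes in U87 and U118. After median-ratio scaling 1 gene was called lower in U87, while in U118 there were 1 higher and 0 lower.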

How the data were processed

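The authors deposited TPM values per gene from mRNA libraries of U87 and U118, 1 table for each cell line. The submitters' processing notes name GRCh38, FastQC 0.11.2, Trimmomatic 0.36, HISAT2 2.0 and bedtools 2.26.0. The tool that made the TPM and the annotation are not given in the sources used here. TPM keeps no counts, so depth is unknown and no interval or detection floor was given. Identifiers were matched to GENCODE release 29, which held 57836 of 58174.

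The log2(TPM + 1) values of each line were analysed in limma 3.58.1 (R 4.3.3), by lmFit and a trended eBayes, keeping genes that reached 1 TPM in 3 or more libraries. The difference between the lines was an interaction over all 12 libraries. P-values were adjusted by Benjamini-Hochberg over all genes tested. The labels do not say whether replicates were separate cultures, so p-values measure only the spread between these libraries. The fit was tested on simulated data with 200 genes shifted by a log2 change of 2. Of these it called 93% in U87 (1 false call among 13845 genes) and 81.5% in U118 (6 false calls among 15527 genes). Noise was drawn for each gene separately, and only genes with a mean log2(TPM + 1) above 2 were shifted. The rates therefore do not cover smaller changes, or shifts that many genes of a library share.

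The 9 genes and the lists were chosen with earlier results of these data known. Named besides the 9 genes were SLC7A11, TXNRD1, SRXN1 and BACH1, up to 3 called genes per list and line with the largest fold change and no overlap of groups, of which a part is printed and some are not reported here, and the 3 most similar genes for NFE2L2, NQO1 and HMOX1. HMOX2, FTL, SESN2 and SEPSECS, the ratios and the comparison with U87 levels were chosen after their values had been seen. Ratios were tested with exact two-sided permutation tests (SciPy 1.17.1). Alternatives were pseudocounts of 0.1 and 0.001, no filter, a minimum mean of 10 TPM, median-ratio scaling, TPM recomputed without mitochondrially encoded genes, eBayes without trend, the replicate number as a block, no fold change limit and leaving out each library. Removing trends with GC content and transcript length, and counting list genes without those at 1 TPM or more in 1 group only, were added after the data were seen.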

Additional observations from a re-analysis of the deposited data

Results flagged for a closer look

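The change from control to aggregation cells differed between the cell lines for 3 of the 9 genes by the interaction test of limma over 12 libraries, beside 38.1% of all genes tested. For NFE2L2 the U118 change minus the U87 change was -1.15 on the log2 scale (adjusted p = 0.0171), with all 3 U87 aggregation libraries above the controls and the U118 groups overlapping. After median-ratio scaling it was -0.94 (adjusted p = 0.0105), short of the fold change limit. For GSR the difference was 0.77 (adjusted p = 0.00973), with all 3 U118 aggregation libraries above and all 3 U87 aggregation libraries below their controls. In U87 the GSR fold change of -0.16 was 0.12 after median-ratio scaling and -0.019 without mitochondrially encoded genes, while the difference was 0.98 (adjusted p = 0.000476) and 0.83 (adjusted p = 0.000917). For HMOX1 the difference was -0.75 (adjusted p = 0.0154), with all aggregation libraries above the controls in both lines, and after median-ratio scaling it was -0.53 (adjusted p = 0.108), or -1.17 (adjusted p = 0.000877) with the GC and length trends removed.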

How the results depend on the processing

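Of 9 genes, 1 was called in U87, with 2 after median-ratio scaling, 4 without the fold change limit and 1 to 2 when a library was left out. In U118, 0 were called, with 1 at a pseudocount of 0.1, 1 at 0.001, 1 without mitochondrially encoded genes, 1 with GC and length trends removed, 4 after median-ratio scaling, 3 without the fold change limit and 0 to 1 with a library left out. The difference between the lines was called for 1 gene, for 2 without mitochondrially encoded genes, 3 without the fold change limit, 3 with GC and length trends removed and 0 to 2 with a library left out. After median-ratio scaling the gene called for the difference was GCLC in place of NFE2L2. Signs turned with median-ratio scaling for KEAP1 (0.0814), GCLC (0.18) and GSR (0.12) in U87, NFE2L2 (0.15) and KEAP1 (0.0122) in U118 and GPX4 (0.13) in the difference. They turned without mitochondrially encoded genes for GCLC in U87 (0.0428), and with GC and length trends removed for GPX4 in U118 (-0.34) and for GCLM (0.0887) and GSS (-0.12) in the difference. With a library left out they turned for GCLC in U87 (-0.22 to 0.11, 0.11 without control replicate 2), and in the difference for GSS (-0.0658 to 0.164; -0.0658 without U118 control replicate 3 and -0.0485 without U118 aggregation replicate 1) and GPX4 (-0.25 to 0.20; 0.20 without U118 aggregation replicate 1). None of these values was called, and the cause was not tested. The other values of single genes kept their direction and their side of the limits in 133 cases in U87, 127 in U118 and 181 for the difference, and were called under an alternative only in 5, 13 and 8. In 3 cases NFE2L2 lost its call for the difference.

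With the replicate number as a block the calls were 1 in U87, 0 in U118 and 1 for the difference. Without the fold change limit the block took the adjusted p of GSR (0.0522) in U118 and NFE2L2 (0.0618) in U87 above 0.05 and that of GCLM in U118 (0.0348) and GCLC for the difference (0.0498) below it. A pairing by number was not shown, since same-numbered libraries correlated at 0.0113, -0.0671 and -0.0399 in U87 and at 0.139, 0.0512 and 0.0953 in U118, although in U118 each correlated best with its own number. TPM gives no depth, so the error of low genes such as GCLC and GCLM rests on 3 libraries per group. List medians relative to all genes also moved when the filter on low values was dropped. Without it that of the NRF2 target genes in U118 went from 0.69 to 0.15, and that of the genes supplying cysteine from 1.06 to 0.07. The U118 values of the peroxidases and transferases went from 1.03 to 0.44. In U87 the peroxidases and transferases went from 0.17 to -0.03, and the regulators from 0.16 to -0.05.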
